A study of Mus musculus with 6 samples.

Results

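Interferon-stimulated genes were read out in heart muscle cells that had been given an active transcription factor of the unfolded protein response. The 39 genes were taken by symbol from the 23337 of the count table. They comprise 31 genes best known as type I interferon targets and 8 genes of the interferon-gamma type, namely Irf1, the guanylate-binding protein genes Gbp2 and Gbp3, and the immunity-related GTPase genes Tgtp1, Igtp, Irgm1, Irgm2 and Iigp1. Of the 39, 38 passed the filter on low counts, and Mx1, an antiviral GTPase gene, did not.

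The libraries came from wild-type mice injected at postnatal day 1 with an adeno-associated virus, or AAV, and cardiomyocytes were taken at 4 weeks of age by Langendorff perfusion and fluorescence-activated sorting. The 3 groups had 2 libraries each: AAV-XBP1S, carrying the spliced and active form of XBP1, AAV-ATF6N, carrying the nuclear amino-terminal fragment of ATF6, and AAV-GFP, the control virus. All 6 libraries were made from polyadenylated RNA of hearts given a virus, and uninjected hearts were not analysed here. The sources used here do not give the mouse strain, the promoter in the virus, the sorting gate or any pooling of animals. Nor is it stated that the 2 libraries of a group came from separate animals, so the p-values here reflect the scatter of these 6 samples alone, and that scatter may be technical.

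Type I interferons bind a receptor on nearly every cell type, and through the kinases JAK1 and TYK2 they activate a complex with STAT2 and IRF9 that binds the interferon-stimulated response element (ISRE). Interferon-gamma acts through its own receptor and the gamma-activated site (GAS), and induces IRF1, itself an activator at ISRE-like sequences. In the heart these genes are known mainly from viral myocarditis and from the response to nucleic acids released by injured cells.

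Some promoters of the members hold letters of 1 or both kinds of element. Shown are those of Irf1, Isg15 and Tgtp1, the members called by the test, and those of 3 further GTPase genes, since Gbp2 was low where Tgtp1 was low while Igtp and Irgm2 were not. RefSeq promoters on GRCm38.p6, 250 bases before and 50 bases after the start, were found for 30 of the 39 members. ISRE was searched as GAAA and GAAA with any 2 bases between them, and GAS as TTCNNNGAA, on both strands, and matches were allowed to overlap each other. A gene was counted when any of its promoters held the motif. ISRE was present in 16 of the 30 (53.3%), against 3.99% of all 27025 genes with a promoter. GAS was present in 11 (36.7%), against 9.55%, and both motifs in 6 (20%), against 0.614%. Among 7 interferon-gamma type members, 6 held ISRE and 4 GAS, and among 23 type I members 10 held ISRE and 7 GAS. The sequences below run 5′ to 3′ on the gene's strand, from 150 bases before the start to 10 bases into the transcript, with matches in capitals.
Irf1, chr11:53769864-53770023, plus strand: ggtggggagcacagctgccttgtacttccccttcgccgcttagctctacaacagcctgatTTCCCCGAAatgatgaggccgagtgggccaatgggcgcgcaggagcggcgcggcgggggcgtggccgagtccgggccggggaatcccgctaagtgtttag
Isg15, chr4:156200809-156200968, minus strand: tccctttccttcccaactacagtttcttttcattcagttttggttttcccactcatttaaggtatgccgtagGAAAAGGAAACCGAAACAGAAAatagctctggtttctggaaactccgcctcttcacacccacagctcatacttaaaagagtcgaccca
Tgtp1, chr11:48992237-48992396, minus strand: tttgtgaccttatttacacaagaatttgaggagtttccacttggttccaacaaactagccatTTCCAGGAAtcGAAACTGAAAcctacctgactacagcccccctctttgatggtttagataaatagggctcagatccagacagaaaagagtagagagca
Igtp, chr11:58199406-58199565, plus strand: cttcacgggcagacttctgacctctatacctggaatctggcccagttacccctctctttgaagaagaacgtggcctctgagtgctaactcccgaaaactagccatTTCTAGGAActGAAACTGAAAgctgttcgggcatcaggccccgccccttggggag
Irgm2, chr11:58214827-58214986, plus strand: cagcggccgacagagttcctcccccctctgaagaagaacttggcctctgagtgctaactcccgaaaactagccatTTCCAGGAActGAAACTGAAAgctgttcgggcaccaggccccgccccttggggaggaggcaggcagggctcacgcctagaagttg
Gbp2, chr3:142620513-142620672, plus strand: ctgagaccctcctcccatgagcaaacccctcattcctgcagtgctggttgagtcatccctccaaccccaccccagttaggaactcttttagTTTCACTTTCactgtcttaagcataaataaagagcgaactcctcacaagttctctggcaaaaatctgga
The Irf1 window held a GAS and no ISRE by these letters. Isg15 held 3 overlapping ISRE matches, and Gbp2 held ISRE on the opposite strand. In Tgtp1, Igtp and Irgm2 a GAS was followed by an ISRE with 2 bases between them. The Igtp and Irgm2 windows were identical at 113 of 130 aligned bases (86.9%), and the Tgtp1 and Irgm2 windows at 65 of 146 (44.5%). A match is a description of the letters, not evidence of a bound site.

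Levels are given as CPM, counts scaled to a common library size after TMM normalization. Libraries held 67702482 to 112049342 counts, so that 3 counts came to 0.0305 to 0.0459 CPM. The members took 0.0892% and 0.0985% of all counts in AAV-XBP1S, 0.0535% and 0.0520% in AAV-ATF6N, and 0.0714% and 0.0858% in AAV-GFP. Per kilobase of exon, the highest level of the 39 in AAV-XBP1S was that of Ifi35, an interferon-induced leucine zipper protein gene (29.3 CPM per kilobase), and in AAV-ATF6N that of Iigp1 (20.5 CPM per kilobase). In AAV-GFP it was Irf1 (63.1 CPM per kilobase), followed by Ifi35 (28.1), Bst2, which encodes tetherin (26.6), and Isg15, a ubiquitin-like modifier gene (18.7). Irf1 stood at 14.3 CPM per kilobase in AAV-XBP1S and 8.09 in AAV-ATF6N. Mx1 was near absent, with 0 and 8 counts in AAV-XBP1S, 2 and 8 in AAV-ATF6N, and 14 and 0 in AAV-GFP. The typical distance between the 2 libraries of a group, as the median absolute log2 ratio over 38 members, was 0.38 in AAV-XBP1S, 0.13 in AAV-ATF6N and 0.41 in AAV-GFP.

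Genes of the sex chromosomes differed between the groups. The Y-linked Ddx3y had 0.0215 and 0 CPM in AAV-XBP1S cells, 93.97 and 89.7 CPM in AAV-ATF6N cells, and 11.6 and 21.0 CPM in AAV-GFP cells. Xist, transcribed from the inactive X chromosome, had 43.1 and 20.2 CPM in AAV-XBP1S cells, 0.197 and 0.0919 CPM in AAV-ATF6N cells, and 24.6 and 7.88 CPM in AAV-GFP cells. The sex of the animals and the virus they received therefore cannot be told apart in any of the comparisons. In a principal component plot AAV-GFP replicate 1 lay far from the other libraries (first axis 43.9% of the variance), and Rn45s, a ribosomal RNA precursor, took 0.337% of its counts, against at most 0.130% elsewhere.

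**Figure D1:**
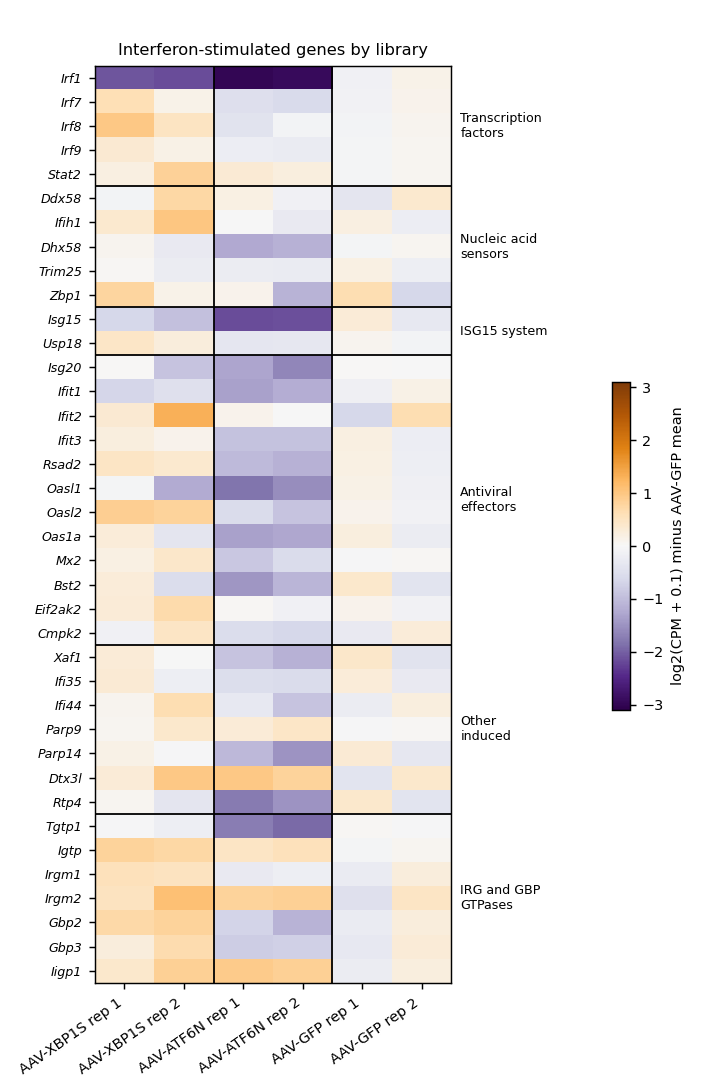
Level of each of the 38 tested members in each library, as log2(CPM + 0.1) minus the mean of the 2 AAV-GFP libraries, ordered by role. Irf1 is low in all 4 treated libraries. The antiviral effectors Ifit3, Rsad2, Oasl2 and Mx2 are below the AAV-GFP mean in the AAV-ATF6N columns and above it in the AAV-XBP1S columns. Not all effectors share this, since 5 of the 12 tested had a log2 fold change below 0 in AAV-XBP1S against AAV-GFP. Igtp, Irgm2 and Iigp1 are above the AAV-GFP mean in both treatments.

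In short, Irf1 fell in cells given either factor, and Isg15 and Tgtp1 fell in cells given ATF6N. In AAV-XBP1S against AAV-GFP, the quasi-likelihood test of edgeR, with Benjamini-Hochberg adjustment across the 14587 genes tested, called 0 of 38 members higher and 1 lower, where 0.178% and 0.137% of all genes tested were called. At an unadjusted p under 0.05, 5 members were higher and 3 lower (all genes 6.37% and 5.21%), and DESeq2 called 1 higher, Igtp, and 1 lower, Irf1 (all genes 1.9% and 1.27%). In AAV-ATF6N against AAV-GFP the test called 0 higher and 3 lower, where 0.35% and 0.165% of all genes were called. Unadjusted, 3 were higher and 17 lower (all genes 6.92% and 6.54%), and DESeq2 called 0 higher and 13 lower (all genes 2.24% and 1.51%). In AAV-ATF6N against AAV-XBP1S edgeR called 0 in either direction, where 0.171% and 0.0548% of all genes were called, while 0 were higher and 26 lower at an unadjusted p under 0.05 (all genes 5.69% and 7.55%), and DESeq2 called 0 higher and 14 lower (all genes 2.05% and 3.34%). Without AAV-GFP replicate 1, edgeR called 1 member lower in AAV-XBP1S against AAV-GFP, 4 in AAV-ATF6N against AAV-GFP and 12 in AAV-ATF6N against AAV-XBP1S, where 0.265%, 0.239% and 2.79% of all genes were called lower. Without AAV-GFP replicate 2 these counts were 1, 14 and 13, and the share of all genes called lower was 0.681%, 9.86% and 2.76%. The comparisons share libraries with each other, so they are not independent.

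Where the calls were few, the position of the libraries shows the direction of the rest. Both AAV-ATF6N libraries lay below both AAV-GFP libraries in 25 of 38 members and above them in 6, against 26.7% and 27.9% of all genes. Both AAV-ATF6N libraries lay below both AAV-XBP1S libraries in 32 of 38 members and above them in 0, against 26.8% and 30.1% of all genes. The AAV-XBP1S libraries lay above both AAV-GFP libraries in 16 members and below them in 3, against 19.1% and 16.8% of all genes. The median log2 fold change over the 38 members was 0.33 in AAV-XBP1S against AAV-GFP, with 27 above 0 and 11 below (all genes 48.8% and 51.1%). It was -0.63 in AAV-ATF6N against AAV-GFP, with 6 above and 32 below 0 (all genes 48.7% and 51.3%). Between the treatments, AAV-ATF6N over AAV-XBP1S, it was -0.96, with 3 above and 35 below 0 (all genes 49.5% and 50.4%). The medians over all genes tested lay between -0.02 and -0.01.

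Among the transcription factors, Irf1, the activator induced by interferon-gamma, carried the largest change of any member. Irf1 (mm10, chromosome 11, 53770014 to 53778374, plus strand) had 49.1 and 46.7 CPM in AAV-XBP1S cells, 26.7 and 27.7 CPM in AAV-ATF6N cells, and 191 and 233 CPM in AAV-GFP cells. All 4 treated libraries lay far below both control libraries, and the treated groups did not overlap each other. Irf1 fell by 2.15 on the log2 scale in AAV-XBP1S (SE 0.20, edgeR adjusted p = 0.0155) and fell by 2.96 in AAV-ATF6N (SE 0.21, edgeR adjusted p = 0.00567), so that its mean level was 4.43-fold and 7.81-fold higher in AAV-GFP. Between the treatments its log2 difference was -0.82 (SE 0.20, edgeR adjusted p = 0.145), which did not pass. The Irf1 call in AAV-XBP1S was lost without AAV-XBP1S replicate 1 or 2 (edgeR adjusted p = 0.284 and 0.279), without AAV-ATF6N replicate 1 or 2 (0.0785 and 0.0808) and with only the 2 groups in the fit (0.0984). That in AAV-ATF6N was lost without AAV-ATF6N replicate 1 or 2 (edgeR adjusted p = 0.120 and 0.111) and with only the 2 groups in the fit (0.0582), while the log2 fold changes stayed between -2.29 and -1.96 in AAV-XBP1S and between -3.13 and -2.80 in AAV-ATF6N over all alternatives.

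The other 4 transcription factors did not follow Irf1, and edgeR called none of them in any comparison, while DESeq2 called Irf7 lower in AAV-ATF6N than in AAV-XBP1S. Irf7, which drives interferon production, had 38.0 and 27.4 CPM in AAV-XBP1S cells, 17.6 and 16.6 CPM in AAV-ATF6N cells, and 22.9 and 27.1 CPM in AAV-GFP cells. The order was AAV-XBP1S, AAV-GFP, AAV-ATF6N, with no overlap, though the lower AAV-XBP1S library lay close to the higher AAV-GFP library. Irf8, a factor of myeloid cells, had 8.15 and 5.81 CPM in AAV-XBP1S cells, 3.01 and 3.89 CPM in AAV-ATF6N cells, and 3.83 and 4.39 CPM in AAV-GFP cells. Its AAV-ATF6N and AAV-GFP libraries overlapped, and AAV-XBP1S was the high group. Irf9 and Stat2 encode parts of the complex that binds ISRE. Irf9 had 38.8 and 33.6 CPM in AAV-XBP1S cells, 26.3 and 25.4 CPM in AAV-ATF6N cells, and 29.2 and 31.4 CPM in AAV-GFP cells. Stat2 had 27.6 and 42.8 CPM in AAV-XBP1S cells, 30.03 and 28.0 CPM in AAV-ATF6N cells, and 23.0 and 25.1 CPM in AAV-GFP cells. Irf9 kept the order seen for Irf7, whereas Stat2 was lowest in AAV-GFP.

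**Figure D2:**
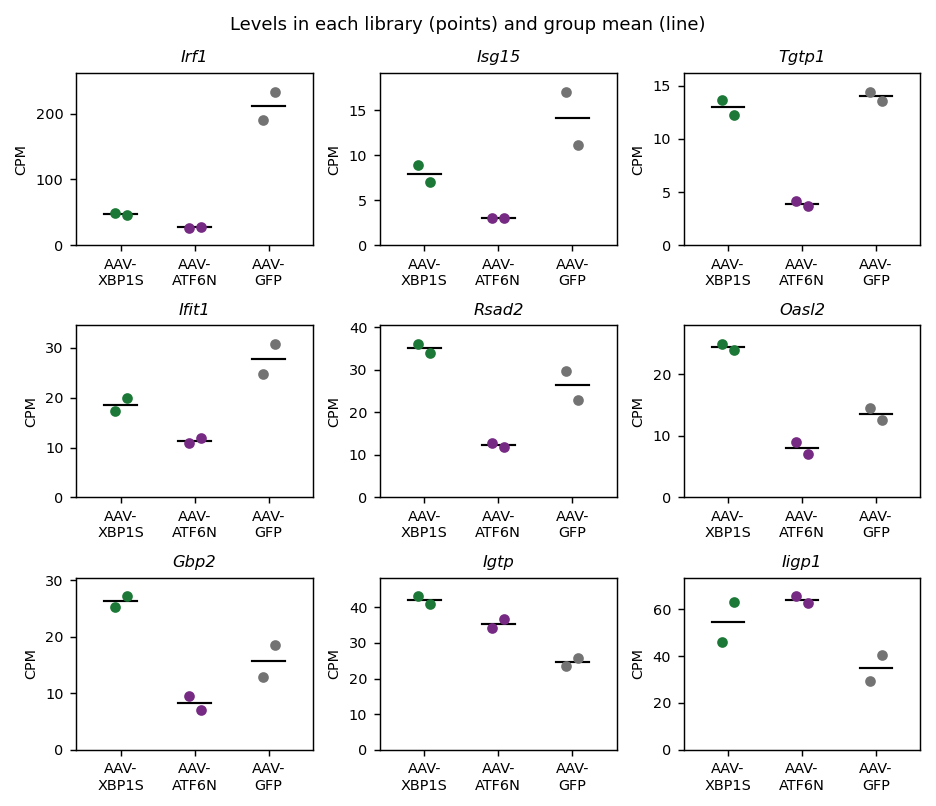
CPM of 9 members in each of the 6 libraries (points) with the group mean (line), on linear axes that start at 0. Irf1 is high in AAV-GFP alone, Isg15 and Ifit1 are lowest in AAV-ATF6N and highest in AAV-GFP, Tgtp1, Rsad2, Oasl2 and Gbp2 are lowest in AAV-ATF6N, and Igtp and Iigp1 are lowest in AAV-GFP.

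In the ISG15 system, the modifier fell in AAV-ATF6N and its protease was not called. Isg15 (chromosome 4, 156199424 to 156200818, minus strand) had 8.90 and 7.04 CPM in AAV-XBP1S cells, 3.01 and 3.06 CPM in AAV-ATF6N cells, and 17.1 and 11.2 CPM in AAV-GFP cells. The 3 groups did not overlap. Isg15 fell by 2.22 on the log2 scale in AAV-ATF6N against AAV-GFP (SE 0.30, edgeR adjusted p = 0.0416), a mean 4.66-fold higher in AAV-GFP. Over the alternatives, Isg15 had a log2 fold change between -2.48 and -1.68 there, with the smallest fall under a gene-length offset. Its log2 fold change of -0.83 in AAV-XBP1S against AAV-GFP (SE 0.28, edgeR adjusted p = 0.359) and of -1.39 in AAV-ATF6N against AAV-XBP1S (SE 0.29, edgeR adjusted p = 0.107) did not pass. The call in AAV-ATF6N was lost without either AAV-ATF6N library (edgeR adjusted p = 0.417 and 0.444 without replicate 1 and 2), without either AAV-XBP1S library (0.127 and 0.126) and with only the 2 groups in the fit (0.142). Usp18, which takes ISG15 off proteins and dampens receptor signalling, had 19.6 and 16.9 CPM in AAV-XBP1S cells, 11.2 and 11.4 CPM in AAV-ATF6N cells, and 15.1 and 13.5 CPM in AAV-GFP cells. Its groups did not overlap either, and it was not called in any comparison.

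The antiviral effectors lay lower in AAV-ATF6N and were divided in AAV-XBP1S. In AAV-ATF6N all 12 tested effectors had a log2 fold change below 0 against AAV-GFP (median -1.03), and all 12 against AAV-XBP1S (median -1.11), where 51.3% and 50.4% of all genes tested lay below 0. Against AAV-GFP, 8 of the 12 were lower at an unadjusted p under 0.05 (all genes 6.54%). There 0 were called lower by edgeR and 7 by DESeq2 (all genes 0.165% and 1.51%). Both AAV-ATF6N libraries were below both AAV-XBP1S libraries in all 12 (all genes 26.8%). Against AAV-XBP1S, 10 were lower at an unadjusted p under 0.05 (all genes 7.55%). There 0 were called lower by edgeR and 4 by DESeq2 (all genes 0.0548% and 3.34%). In AAV-XBP1S against AAV-GFP there were 7 above and 5 below 0 (median 0.16, all genes 48.8% and 51.1%), with 0 called by edgeR or DESeq2. At an unadjusted p under 0.05, 1 was higher and 1 lower (all genes 6.37% and 5.21%).

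Ifit1, which binds viral RNA ends, had 17.3 and 19.97 CPM in AAV-XBP1S cells, 10.9 and 11.9 CPM in AAV-ATF6N cells, and 24.7 and 30.8 CPM in AAV-GFP cells. Its groups did not overlap, and the log2 fold change in AAV-ATF6N against AAV-GFP was -1.28 (SE 0.22, edgeR adjusted p = 0.0908). Ifit3, of the same family, had 32.4 and 30.0 CPM in AAV-XBP1S cells, 14.5 and 14.5 CPM in AAV-ATF6N cells, and 32.0 and 24.2 CPM in AAV-GFP cells. The AAV-ATF6N libraries were below all others, while AAV-XBP1S and AAV-GFP overlapped. Reads of Ifit3 may be divided with its near copy, listed as I830012O16Rik, and the sum of both kept the order, with 40.3 and 38.9 CPM in AAV-XBP1S cells, 19.5 and 18.8 CPM in AAV-ATF6N cells, and 37.7 and 31.2 CPM in AAV-GFP cells. Ifit2 did not show it, with 21.0 and 41.7 CPM in AAV-XBP1S cells, 17.8 and 16.5 CPM in AAV-ATF6N cells, and 10.6 and 25.7 CPM in AAV-GFP cells. The wide gap between the AAV-GFP libraries enclosed both AAV-ATF6N values.

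Rsad2 encodes viperin, an enzyme that makes a chain terminator of viral RNA synthesis, and Cmpk2, its neighbour on chromosome 12, encodes a nucleotide kinase. Rsad2 had 36.05 and 33.95 CPM in AAV-XBP1S cells, 12.8 and 11.8 CPM in AAV-ATF6N cells, and 29.7 and 23.0 CPM in AAV-GFP cells. Its log2 fold change was -1.51 in AAV-ATF6N against AAV-XBP1S (SE 0.22, edgeR adjusted p = 0.0579) and -1.1 in AAV-ATF6N against AAV-GFP (SE 0.22, edgeR adjusted p = 0.125). The groups were apart in the order AAV-XBP1S, AAV-GFP, AAV-ATF6N. Cmpk2 had 20.01 and 30.3 CPM in AAV-XBP1S cells, 15.0 and 13.9 CPM in AAV-ATF6N cells, and 18.0 and 26.5 CPM in AAV-GFP cells, with the AAV-ATF6N libraries below all others.

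Oasl2 and Oas1a belong to the oligoadenylate synthetase family, which activates the RNA-cutting enzyme RNase L, and Oasl1 of the same family is known in mice to repress translation of Irf7. Oasl2 had 24.9 and 23.9 CPM in AAV-XBP1S cells, 8.995 and 7.07 CPM in AAV-ATF6N cells, and 14.5 and 12.5 CPM in AAV-GFP cells. It was highest in AAV-XBP1S and lowest in AAV-ATF6N, with log2 differences of 0.85 for AAV-XBP1S against AAV-GFP (SE 0.23, edgeR adjusted p = 0.246) and -1.60 for AAV-ATF6N against AAV-XBP1S (SE 0.23, edgeR adjusted p = 0.0579). Oas1a had 7.45 and 4.75 CPM in AAV-XBP1S cells, 2.37 and 2.50 CPM in AAV-ATF6N cells, and 7.28 and 5.22 CPM in AAV-GFP cells. Oasl1 had 4.65 and 2.05 CPM in AAV-XBP1S cells, 1.29 and 1.59 CPM in AAV-ATF6N cells, and 5.51 and 4.34 CPM in AAV-GFP cells. For both genes AAV-ATF6N was below all other libraries and AAV-XBP1S overlapped AAV-GFP, and the log2 fold changes in AAV-ATF6N against AAV-GFP were -1.36 (SE 0.33) and -1.77 (SE 0.44), not called (edgeR adjusted p = 0.193 and 0.211).

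Bst2, whose product tethers budding virions to the cell, had 23.7 and 13.6 CPM in AAV-XBP1S cells, 7.06 and 9.05 CPM in AAV-ATF6N cells, and 25.8 and 15.0 CPM in AAV-GFP cells. Isg20, an exonuclease gene, had 4.47 and 2.35 CPM in AAV-XBP1S cells, 1.77 and 1.38 CPM in AAV-ATF6N cells, and 4.50 and 4.43 CPM in AAV-GFP cells. In both the AAV-ATF6N libraries were the 2 lowest of the 6, with log2 fold changes against AAV-GFP of -1.34 (SE 0.38) and -1.50 (SE 0.39) that were not called (edgeR adjusted p = 0.262 and 0.222). Mx2, an antiviral GTPase gene, had 2.25 and 2.66 CPM in AAV-XBP1S cells, 1.04 and 1.29 CPM in AAV-ATF6N cells, and 1.92 and 2.01 CPM in AAV-GFP cells, again lowest in AAV-ATF6N. Eif2ak2, which encodes the RNA-activated kinase PKR, had 10.3 and 13.3 CPM in AAV-XBP1S cells, 8.53 and 7.502 CPM in AAV-ATF6N cells, and 8.88 and 7.69 CPM in AAV-GFP cells, so that AAV-XBP1S was the group apart.

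Of the nucleic acid sensors, 0 of 5 were called by edgeR in any comparison. At an unadjusted p under 0.05 there were 0 in AAV-XBP1S against AAV-GFP. In AAV-ATF6N, 1 was lower against AAV-GFP (all genes 6.54%) and 2 were lower against AAV-XBP1S (all genes 7.55%). Dhx58, which encodes the regulator LGP2, had 3.32 and 2.57 CPM in AAV-XBP1S cells, 1.26 and 1.35 CPM in AAV-ATF6N cells, and 3.01 and 3.24 CPM in AAV-GFP cells. The AAV-ATF6N libraries were the lowest, with a log2 fold change against AAV-GFP of -1.26 (SE 0.31, edgeR adjusted p = 0.202), and DESeq2 called Dhx58, alone of the sensors, here and in AAV-ATF6N against AAV-XBP1S. Ddx58, which encodes RIG-I, did not separate the groups, with 13.6 and 23.99 CPM in AAV-XBP1S cells, 16.5 and 13.2 CPM in AAV-ATF6N cells, and 11.0 and 18.9 CPM in AAV-GFP cells. Ifih1, which encodes MDA5, had 6.37 and 9.88 CPM in AAV-XBP1S cells, 4.82 and 4.03 CPM in AAV-ATF6N cells, and 5.63 and 4.21 CPM in AAV-GFP cells. In Ifih1, AAV-XBP1S was the high group, and AAV-ATF6N overlapped AAV-GFP. Trim25, a ubiquitin ligase gene of the RIG-I pathway, had 18.1 and 15.2 CPM in AAV-XBP1S cells, 15.1 and 14.8 CPM in AAV-ATF6N cells, and 20.3 and 15.6 CPM in AAV-GFP cells. Zbp1, a sensor of Z-form nucleic acid, had 0.849 and 0.501 CPM in AAV-XBP1S cells, 0.493 and 0.153 CPM in AAV-ATF6N cells, and 0.752 and 0.253 CPM in AAV-GFP cells. Neither gene set AAV-XBP1S apart from AAV-GFP. Ddx58, Ifih1, Trim25 and Zbp1 had a log2 fold change in AAV-ATF6N against AAV-GFP between -0.63 and -0.01.

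The remaining type I members went in different directions in AAV-ATF6N. Rtp4, a receptor transporter gene, had 23.4 and 17.2 CPM in AAV-XBP1S cells, 6.60 and 7.87 CPM in AAV-ATF6N cells, and 29.7 and 16.9 CPM in AAV-GFP cells. Parp14, an ADP-ribosyltransferase gene, had 14.9 and 12.9 CPM in AAV-XBP1S cells, 6.36 and 4.67 CPM in AAV-ATF6N cells, and 16.7 and 10.6 CPM in AAV-GFP cells. Xaf1, which opposes the apoptosis inhibitor XIAP, had 20.5 and 16.4 CPM in AAV-XBP1S cells, 8.79 and 7.41 CPM in AAV-ATF6N cells, and 22.1 and 12.3 CPM in AAV-GFP cells. In all 3 genes the AAV-ATF6N libraries were the lowest and AAV-XBP1S overlapped AAV-GFP, with log2 fold changes in AAV-ATF6N against AAV-GFP of -1.69 (SE 0.33), -1.31 (SE 0.31) and -1.09 (SE 0.32) that were not called by edgeR (adjusted p = 0.123, 0.183 and 0.277).

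Dtx3l and Parp9, which encode a ubiquitin ligase and its ADP-ribosyltransferase partner, did the opposite. Dtx3l had 16.4 and 26.3 CPM in AAV-XBP1S cells, 26.5 and 23.4 CPM in AAV-ATF6N cells, and 10.1 and 17.7 CPM in AAV-GFP cells. Parp9 had 19.6 and 25.1 CPM in AAV-XBP1S cells, 23.2 and 25.8 CPM in AAV-ATF6N cells, and 18.4 and 19.3 CPM in AAV-GFP cells. Both AAV-ATF6N libraries were above both AAV-GFP libraries in each gene, and neither was called. The genes lie head to head on chromosome 16 and share 334 exonic bases on opposite strands, and since the library kits do not mark strand, reads there cannot be told apart. Ifi35 had 46.8 and 32.9 CPM in AAV-XBP1S cells, 26.05 and 25.5 CPM in AAV-ATF6N cells, and 45.5 and 30.9 CPM in AAV-GFP cells, and Ifi44, which is induced in many viral infections, ranged from 3.22 to 9.64 CPM.

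The GTPases of the interferon-gamma response, which act on vacuoles that hold pathogens in mice, divided in AAV-ATF6N, where Tgtp1 fell. Tgtp1 (chromosome 11, 48985329 to 48992246, minus strand) had 13.6 and 12.2 CPM in AAV-XBP1S cells, 4.12 and 3.64 CPM in AAV-ATF6N cells, and 14.4 and 13.6 CPM in AAV-GFP cells. Only AAV-ATF6N was apart from the others, and its log2 fold change was -1.85 against AAV-GFP (SE 0.22, edgeR adjusted p = 0.0309) and -1.74 against AAV-XBP1S (SE 0.22, edgeR adjusted p = 0.0527), and it passed only against AAV-GFP. The call was lost without either AAV-ATF6N library (edgeR adjusted p = 0.369 and 0.487 without replicate 1 and 2), without either AAV-XBP1S library (0.107 and 0.104) and with only the 2 groups in the fit (0.124). Tgtp1 has a near-identical neighbour, Tgtp2, and reads may be divided between them. Tgtp2 itself was not called in AAV-ATF6N against AAV-GFP, with a log2 fold change of -0.91 (SE 0.25, edgeR adjusted p = 0.239). The sum of Tgtp1 and Tgtp2 was 31.2 and 31.1 CPM in AAV-XBP1S cells, 10.8 and 9.65 CPM in AAV-ATF6N cells, and 24.4 and 27.5 CPM in AAV-GFP cells. It was again lowest in AAV-ATF6N, but AAV-XBP1S here lay above AAV-GFP.

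Gbp2 had 25.3 and 27.2 CPM in AAV-XBP1S cells, 9.60 and 7.04 CPM in AAV-ATF6N cells, and 12.9 and 18.5 CPM in AAV-GFP cells. Its 3 groups did not overlap, and the log2 fold change of AAV-ATF6N against AAV-XBP1S was -1.66 (SE 0.28, edgeR adjusted p = 0.0685). Gbp3 had 22.2 and 29.2 CPM in AAV-XBP1S cells, 10.7 and 10.9 CPM in AAV-ATF6N cells, and 14.8 and 22.9 CPM in AAV-GFP cells. Irgm1, which regulates the other immunity-related GTPases, had 46.7 and 44.9 CPM in AAV-XBP1S cells, 25.8 and 27.4 CPM in AAV-ATF6N cells, and 26.4 and 37.0 CPM in AAV-GFP cells. These 3 genes were lowest on average in AAV-ATF6N and highest in AAV-XBP1S, and edgeR called none of them.

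Igtp, Irgm2 and Iigp1 were higher on average with both factors than with GFP, although edgeR called none. Igtp had 43.2 and 41.0 CPM in AAV-XBP1S cells, 34.1 and 36.6 CPM in AAV-ATF6N cells, and 23.4 and 25.7 CPM in AAV-GFP cells. Irgm2 had 35.4 and 52.6 CPM in AAV-XBP1S cells, 43.2 and 44.2 CPM in AAV-ATF6N cells, and 17.5 and 34.2 CPM in AAV-GFP cells. Iigp1, on chromosome 18, had 45.8 and 63.0 CPM in AAV-XBP1S cells, 65.7 and 62.6 CPM in AAV-ATF6N cells, and 29.3 and 40.5 CPM in AAV-GFP cells. For all 3 genes the 4 treated libraries were above the 2 control libraries. For Irgm2 the lower AAV-XBP1S library (35.4 CPM) lay close to the higher AAV-GFP library (34.2 CPM). Of all genes, 19.1% had both AAV-XBP1S libraries above both AAV-GFP libraries, and 27.9% had both AAV-ATF6N libraries above them. The log2 fold change in AAV-XBP1S against AAV-GFP was 0.78 for Igtp (SE 0.19, edgeR adjusted p = 0.222), which passed with DESeq2 (adjusted p = 0.0366). In AAV-ATF6N against AAV-GFP it was 0.88 for Iigp1 (SE 0.26, edgeR adjusted p = 0.268). Without AAV-GFP replicate 2, edgeR called Irgm2, Iigp1 and Dtx3l higher in AAV-ATF6N against AAV-GFP, 3 of 39 members (7.69%), but 10.1% of all genes were called higher there, so the members' share was not above that of all genes. The promoter windows of Tgtp1, Igtp and Irgm2 printed above hold the same 2 motifs at the same spacing. These windows were chosen with the levels of the genes in AAV-ATF6N known. Whether the motifs bear on the levels was not tested.

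**Figure D3:**
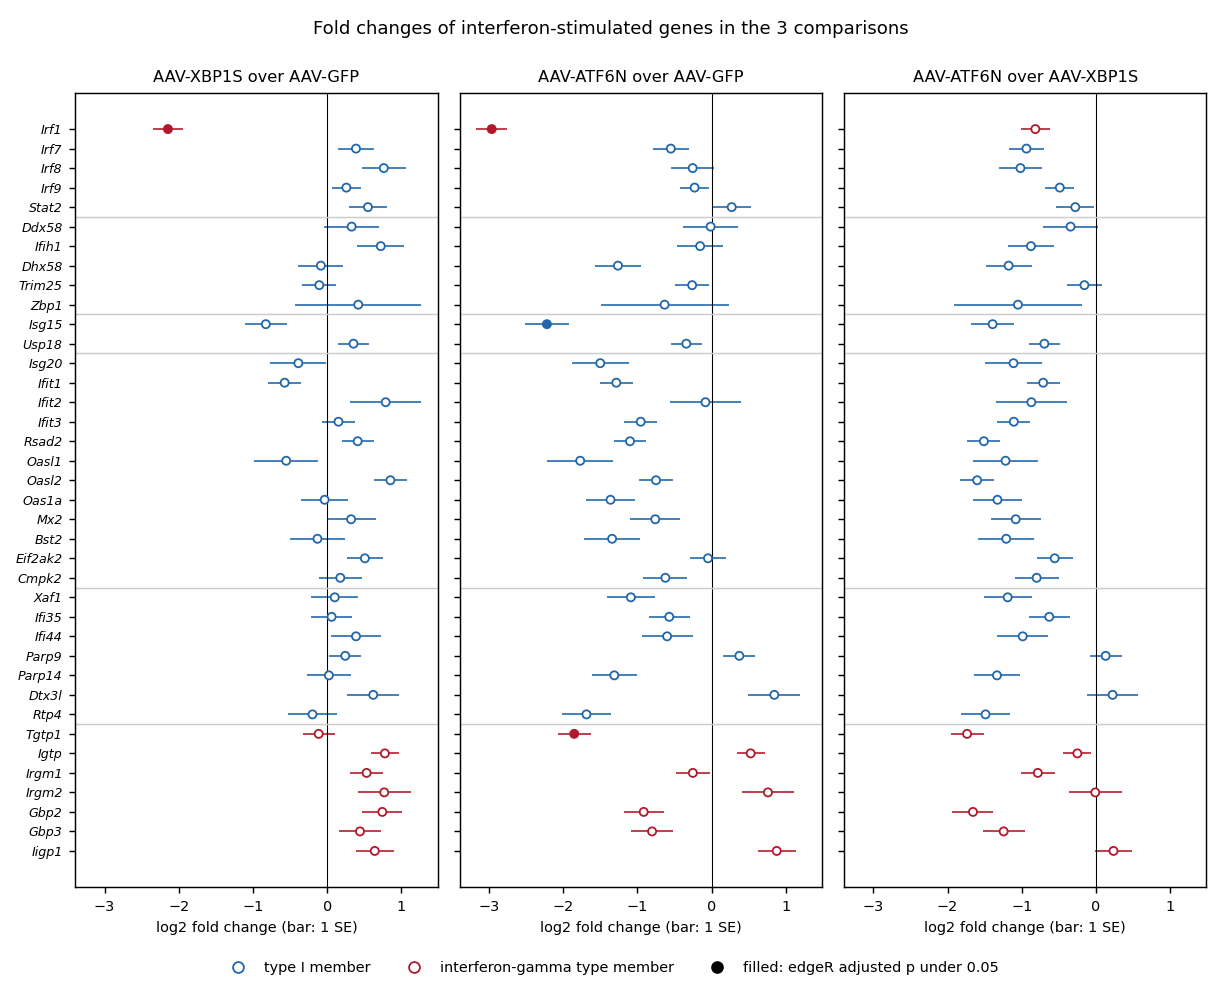
Log2 fold change with its SE (bar) for 38 members, with each treatment over AAV-GFP in the left and middle panels and AAV-ATF6N over AAV-XBP1S on the right, with filled points for an edgeR adjusted p under 0.05. Irf1 is filled in both comparisons with AAV-GFP, Isg15 and Tgtp1 in that of AAV-ATF6N, and 35 of 38 points lie below 0 in AAV-ATF6N against AAV-XBP1S.

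Set side by side, the type I and the interferon-gamma type members had medians of the same sign in each comparison. In AAV-XBP1S against AAV-GFP the median log2 fold change was 0.25 over 30 type I members and 0.59 over 8 interferon-gamma type members, with 21 of 30 and 6 of 8 above 0. In AAV-ATF6N against AAV-GFP it was -0.63 and -0.53, with 27 of 30 and 5 of 8 below 0, and in AAV-ATF6N against AAV-XBP1S it was -1.0 and -0.80, with 28 of 30 and 7 of 8 below 0. The range within the interferon-gamma type was wider than the gap between the types, from -2.96 (Irf1) to 0.88 (Iigp1) in AAV-ATF6N against AAV-GFP. The interferon-gamma type median in that comparison was -0.25 with Irf8 counted among them, -0.78 without AAV-GFP replicate 1 and -0.21 without AAV-GFP replicate 2. In AAV-XBP1S against AAV-GFP it was 0.33 without AAV-GFP replicate 1. Whether the types differ was not tested, since the lists were drawn up with results of these data known.

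The interferons themselves were not detectable at this depth. The 12 ligand genes looked up, Ifnb1 and Ifng among them, all failed the filter, and the highest level of any in any library was 0.0281 CPM (Ifnz), below the level of 3 counts. The receptor genes were measured. Of 10 receptor, kinase and STAT genes, edgeR called 0 in any comparison. At an unadjusted p under 0.05, 1, 2 and 1 were higher (all genes 6.37%, 6.92% and 5.69%). DESeq2 called 1, Stat3, higher in AAV-ATF6N than in AAV-XBP1S (all genes 2.05%). Ifnar1 had 31.7 and 49.1 CPM in AAV-XBP1S cells, 41.4 and 47.0 CPM in AAV-ATF6N cells, and 28.0 and 40.5 CPM in AAV-GFP cells, with AAV-ATF6N above AAV-GFP and AAV-XBP1S overlapping both. Ifnar2 had 62.6 and 47.5 CPM in AAV-XBP1S cells, 36.2 and 39.99 CPM in AAV-ATF6N cells, and 54.9 and 41.9 CPM in AAV-GFP cells, and was lowest in AAV-ATF6N. Ifngr1 ranged from 52.2 to 71.2 CPM and Ifngr2 from 426 to 586 CPM. Over these 10 genes the median log2 fold change was 0.10 in AAV-XBP1S and 0.09 in AAV-ATF6N against AAV-GFP.

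In the arm that induces interferon, Tmem173, which encodes the DNA-sensing adaptor STING, was the 1 of 12 tested genes that was called. Of all genes, edgeR called 0.165% lower in AAV-ATF6N against AAV-GFP. Tmem173 had 13.8 and 13.4 CPM in AAV-XBP1S cells, 6.31 and 6.28 CPM in AAV-ATF6N cells, and 16.5 and 18.5 CPM in AAV-GFP cells, and fell by 1.48 on the log2 scale in AAV-ATF6N against AAV-GFP (SE 0.21, edgeR adjusted p = 0.0482). The call was lost without either AAV-ATF6N library (edgeR adjusted p = 0.637 and 0.643 without replicate 1 and 2), without either AAV-XBP1S library (0.152 and 0.148) and with only the 2 groups in the fit (0.162). Of the 8 negative regulators edgeR called 0 in each comparison. At an unadjusted p under 0.05, 0 were higher and 1 lower in AAV-XBP1S against AAV-GFP (all genes 6.37% and 5.21%). In AAV-ATF6N against AAV-GFP 2 were higher and 2 lower (all genes 6.92% and 6.54%). Between the treatments 1 was higher and 1 lower (all genes 5.69% and 7.55%), and DESeq2 called 1, Socs3, higher in AAV-ATF6N (all genes 2.05%).

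Genes outside the 39 that interferon-gamma or IRF1 is known to induce included a pair whose log2 fold changes exceeded those of Irf1 in size. Of 22 tested, 2 were called lower and 0 higher in each comparison with AAV-GFP, Icam1 and Il15, and 0 in AAV-ATF6N against AAV-XBP1S, where 0.137%, 0.165% and 0.0548% of all genes were called lower. The direction over the whole list differed between the comparisons. At an unadjusted p under 0.05, 6 were higher and 3 lower in AAV-XBP1S against AAV-GFP (all genes 6.37% and 5.21%). There were 1 higher and 10 lower in AAV-ATF6N against AAV-GFP (all genes 6.92% and 6.54%). Between the treatments 1 was higher and 13 lower (all genes 5.69% and 7.55%). DESeq2 called 2 higher and 3 lower, 1 higher and 8 lower, and 0 higher and 10 lower in the same comparisons. Of all genes DESeq2 called 1.9% higher and 1.27% lower, 2.24% and 1.51%, and 2.05% and 3.34%. Icam1, the leukocyte adhesion molecule gene, had 18.8 and 20.3 CPM in AAV-XBP1S cells, 27.3 and 31.8 CPM in AAV-ATF6N cells, and 323 and 415 CPM in AAV-GFP cells, with log2 fold changes against AAV-GFP of -4.24 in AAV-XBP1S (SE 0.24, edgeR adjusted p = 0.00355) and -3.64 in AAV-ATF6N (SE 0.24, edgeR adjusted p = 0.00443). Il15, a cytokine gene, had 3.74 and 3.801 CPM in AAV-XBP1S cells, 2.21 and 2.20 CPM in AAV-ATF6N cells, and 35.7 and 24.9 CPM in AAV-GFP cells, with log2 fold changes against AAV-GFP of -3.01 in AAV-XBP1S (SE 0.26, edgeR adjusted p = 0.0137) and -3.78 in AAV-ATF6N (SE 0.28, edgeR adjusted p = 0.0059). Like Irf1, both had their 4 treated libraries far below the control. The AAV-XBP1S calls of both genes were lost without either AAV-XBP1S library (edgeR adjusted p = 0.0913 and 0.0862 for Icam1, 0.230 and 0.216 for Il15), and their AAV-ATF6N calls without either AAV-ATF6N library (0.0796 and 0.0777 for Icam1, 0.0829 and 0.0943 for Il15). With only the 2 groups in the fit, Il15 was not called in either comparison (0.0599 and 0.0582). The median over the 22 was 0.40 in AAV-XBP1S against AAV-GFP, -0.53 in AAV-ATF6N against AAV-GFP and -1.16 in AAV-ATF6N against AAV-XBP1S. Over 27 other type I targets it was 0.49, -0.55 and -1.02, with 26 of 27 below 0 in AAV-ATF6N against AAV-XBP1S (all genes 50.4%). For these edgeR called 0 in each comparison. At an unadjusted p under 0.05, 4 were higher and 1 lower, 0 higher and 12 lower, and 0 higher and 15 lower. DESeq2 called 1 higher, 6 lower and 9 lower. The shares of all genes for the same tests and comparisons are those given above in this paragraph.

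Markers of other cell types varied between the groups as well, and in bulk RNA fewer cells of a type and less RNA per cell cannot be told apart. The summed level of 14 endothelial markers was 2058 and 2173 CPM in AAV-XBP1S cells, 1018 and 959 CPM in AAV-ATF6N cells, and 1777 and 1546 CPM in AAV-GFP cells. In AAV-ATF6N against AAV-XBP1S all 14 lay below 0 (median -1.0), and against AAV-GFP 13 of 14 (median -0.60), where 50.4% and 51.3% of all genes did. EdgeR called 0. At an unadjusted p under 0.05, 11 and 7 were lower (all genes 7.55% and 6.54%), and by DESeq2 8 and 4 (all genes 3.34% and 1.51%). In AAV-XBP1S against AAV-GFP 13 of 14 lay above 0 (median 0.46, all genes 48.8%), with 3 higher at an unadjusted p under 0.05 (all genes 6.37%). The AAV-ATF6N libraries were likewise the low ones in 21 of 30 type I members against AAV-GFP and in 26 of 30 against AAV-XBP1S. Of the 8 interferon-gamma type members this held in 4 and 6, and of all genes tested in 26.7% and 26.8%. The part of endothelial RNA in the levels of the members was not tested. Macrophage and leukocyte markers, 21 genes of which Cd3e and Nkg7 were at or near 0, summed to 86.5 and 74.1 CPM in AAV-XBP1S cells, 76.5 and 74.8 CPM in AAV-ATF6N cells, and 56.4 and 57.3 CPM in AAV-GFP cells, and in AAV-ATF6N against AAV-XBP1S their median was -0.03 with 0 called by edgeR or DESeq2 and 0 at an unadjusted p under 0.05. The 10 fibroblast markers summed to 1628 and 1774 CPM in AAV-XBP1S cells, 1428 and 1380 CPM in AAV-ATF6N cells, and 958 and 1204 CPM in AAV-GFP cells. In AAV-XBP1S against AAV-GFP 5 of them were higher and 1 lower at an unadjusted p under 0.05 (all genes 6.37% and 5.21%), and edgeR called 0. The 10 cardiomyocyte markers summed to 85671 and 89695 CPM in AAV-XBP1S cells, 123000 and 122285 CPM in AAV-ATF6N cells, and 104512 and 96320 CPM in AAV-GFP cells, which fits the label of the cells. In AAV-ATF6N against AAV-GFP 5 of the 10 lay above 0 and 5 below, and edgeR called 1 higher (all genes 0.35%). Myh6 alone had a mean of 65818 CPM in AAV-ATF6N cells and 32056 CPM in AAV-GFP cells.

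**Figure D4:**
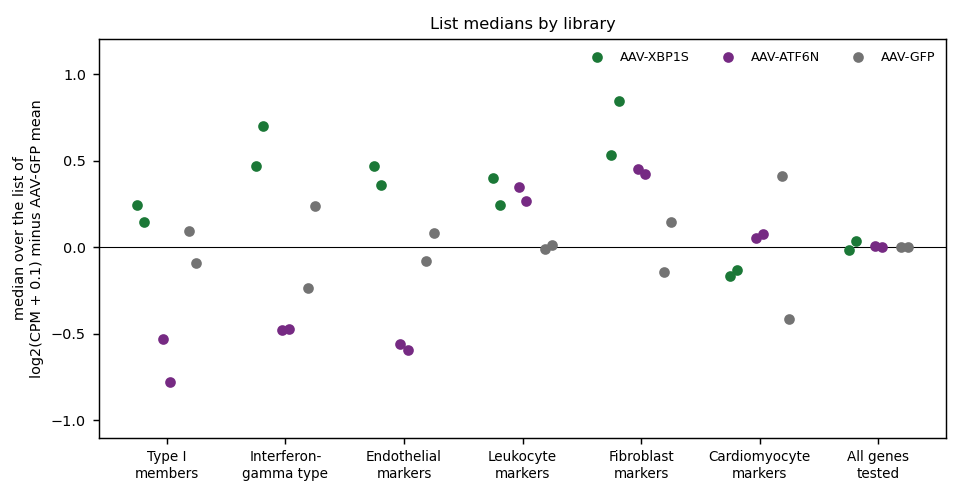
Median over each gene list of log2(CPM + 0.1) minus the AAV-GFP mean, with 1 point per library. The type I members and the endothelial markers both sit between -0.78 and -0.53 in the AAV-ATF6N libraries and above 0 in the AAV-XBP1S libraries. The interferon-gamma type members sit at -0.48 and -0.47 in the AAV-ATF6N libraries and also above 0 in AAV-XBP1S, whereas the leukocyte markers sit between 0.25 and 0.40 in all 4 treated libraries.

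The authors' deposited tables, which compare each treatment with AAV-GFP, listed more members below an adjusted p of 0.05 in AAV-ATF6N. In the authors' deposited table for AAV-XBP1S 1 of 39 members was lower, Irf1, and 1.31% of all genes with a value were called. In the authors' deposited table for AAV-ATF6N 11 of 39 members were lower and 0 higher, where 2.71% of all genes were called. These were Irf1, Isg15, Tgtp1, Isg20, Ifit1, Rsad2, Oasl1, Oas1a, Bst2, Parp14 and Rtp4, and the authors' deposited table gives Rtp4 a log2 fold change of -1.68 and Ifit1 one of -1.28.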

How the data were processed

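Sorted cardiomyocyte RNA was measured in 6 libraries. Per the labels' protocols, cDNA was made with the SMART-Seq v4 kit, a description names SMART-Seq2, and libraries were built with Nextera XT. The authors deposited whole-number read counts per gene, for which the file headers and the submitters' processing notes name STAR, featureCounts and mm10. The sources used here do not give versions, annotation release or strand setting. The authors' deposited comparison tables hold, per the file headers, a mean normalized signal, a log2 fold change, scores (a standard error and a test statistic) and p-values with their adjustment. DESeq2 and DESeq appear in the submitters' processing notes. Those tables were used only where they are named.

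Counts of all 6 libraries (67702482 to 112049342 each) were filtered with filterByExpr (count minimum 10), which kept 14587 genes, TMM-normalized, and fitted with edgeR 4.0.16 in R 4.3.3 (quasi-likelihood, group only, 3 residual degrees of freedom). Tests were two-sided, p-values were adjusted by Benjamini and Hochberg's method across the genes tested, and the threshold was 0.05. Permuting 2 against 2 libraries gives no exact p below 0.333, so this was not used. The level of 3 counts covers counting error only, since no molecular identifiers are named. Alternatives were DESeq2 1.42.0, its size factors in edgeR, no filter, a replicate block, a gene-length offset, only the 2 groups compared, each library left out, and Irf8 counted with the interferon-gamma type. The code was tested on simulated data. Members were given with values in every library where they were called, had a log2 fold change of 1 or more in size in any comparison, or else were among the 3 others of their role with the highest mean level. Igtp, outside this rule, was added after its values were seen. Outside the members, called genes of the pathway lists, the receptors and the ligands were named, Stat3 and Socs3 were named as the only DESeq2 calls of their lists, and Tgtp2 and I830012O16Rik were added as near copies. A result on 1 gene of the pathway lists is not reported here. The members and lists were chosen with earlier results of these data known.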

Additional observations from a re-analysis of the deposited data

How the results depend on the processing

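Of the 62 results on single genes that were followed, 0 changed sign under any alternative run, nor did the medians of the 2 types. These genes were chosen for a call or a large log2 fold change with all 6 libraries. Members with smaller log2 fold changes were not followed, so their signs may change. In AAV-ATF6N against AAV-GFP, 3 members were called lower with all 6 libraries in edgeR, against 8 without a filter on low counts, 13 with DESeq2, 5 with a gene-length offset, 0 with only the 2 groups compared and 0 to 14 when 1 library was left out (0 without either AAV-ATF6N library, 1 without either AAV-XBP1S library, 14 without AAV-GFP replicate 2, where 9.86% of all genes were called lower). In AAV-ATF6N against AAV-XBP1S, 0 were called lower, against 9, 14, 9 and 12 under the same 4 alternatives and 0 to 13 when 1 library was left out (12 and 13 without AAV-GFP replicate 1 or 2). In AAV-XBP1S against AAV-GFP, 1 was called lower, against 0 with only the 2 groups compared and 0 to 1 when 1 library was left out. Called higher were 1 with DESeq2 in AAV-XBP1S against AAV-GFP and 0 to 3 in AAV-ATF6N against AAV-GFP when 1 library was left out, where all 6 libraries gave 0; the 3 came without AAV-GFP replicate 2, with 10.1% of all genes called higher. The share of all genes called lower moved as well. In AAV-ATF6N against AAV-GFP it was 0.165% with all 6 libraries. It was 0.662% without a filter, 1.51% with DESeq2, 0.631% with a gene-length offset and 0.0142% with only the 2 groups compared. In AAV-ATF6N against AAV-XBP1S it was 0.0548%, against 1.54%, 3.34%, 2.39% and 2.71% under the same alternatives. The cause of these shifts was not tested. In a comparison left with 1 library in a group, that library is assumed to vary like the others.

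With 1 library left out, the median of type I members ran from -0.81 to -0.56 in AAV-ATF6N against AAV-GFP and from -1.01 to -0.82 in AAV-ATF6N against AAV-XBP1S. That of interferon-gamma type members ran from 0.33 to 0.85 in AAV-XBP1S against AAV-GFP and from -0.78 to -0.21 in AAV-ATF6N against AAV-GFP, where it was -0.25 with Irf8 included. Over all genes, 26 were called higher and 20 lower in AAV-XBP1S against AAV-GFP, with 1 to 290 and 1 to 194 over the alternatives. For AAV-ATF6N against AAV-GFP the counts were 51 and 24, with 6 to 1549 and 0 to 1506, and for AAV-ATF6N against AAV-XBP1S 25 and 8, with 1 to 305 and 0 to 498. Over 62 results on single genes, the alternatives gave 591 values on the same side of the threshold, 115 newly past it and 38 no longer past it.

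What libraries with the same replicate number share beyond that number is not known here. Their deviations from the group means correlated at -0.074 (AAV-XBP1S with AAV-ATF6N), 0.507 (AAV-XBP1S with AAV-GFP) and -0.0625 (AAV-ATF6N with AAV-GFP). Only AAV-XBP1S and AAV-GFP thus deviated alike. With the replicate number as a block, 6 members were called lower in AAV-ATF6N against AAV-GFP, 10 in AAV-ATF6N against AAV-XBP1S and 1 in AAV-XBP1S against AAV-GFP. The share of all genes called lower with the block was 0.507%, 1.45% and 0.5%, against 0.165%, 0.0548% and 0.137% without it. With 2 libraries a group, a member that was not called is not shown to be equal between groups.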
